A study of Mus musculus with 5 samples.

Results

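The NGN-cre deletion of Dmrt1 was read on 4 of the 5 arrays of the series, taken by their labels: 3 arrays of testes labelled as Dmrt1 knockout with NGN-cre, called knockout replicates 1, 2 and 3 here, and 1 array labelled as the NGN-cre control. All 25631 transcript rows of each array were used. All 4 samples were total RNA of whole juvenile testes from male mice at postnatal day 9. The knockout samples carried the label Cre-positive and the control the label Cre-negative, and the labels expand NGN-cre no further and do not say whether the control carried conditional Dmrt1 alleles. The fifth array, of a DHH-cre knockout, enters only the closing section. The labels name neither animals nor pools, so p-values here rest on the spread among the 3 knockout samples alone, which may be technical, and the control has no spread of its own.

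Dmrt1 encodes a transcription factor that binds DNA through a DM domain. In the mouse testis it is made in Sertoli cells and in spermatogonia, where it is known to hold back meiosis while spermatogonia divide by mitosis, and in the adult it is known to keep Sertoli cells from taking on features of ovarian granulosa cells. At this juvenile age the seminiferous tubules hold Sertoli cells, spermatogonia and the earliest germ cells that prepare for meiosis. The comparison asked how the transcripts of such testes differ once Dmrt1 has been deleted under NGN-cre.

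The deposited intensities had medians between 721.2 and 729.1 on the 4 arrays. All 8 defining markers of juvenile testis (Ddx4 and Dazl for germ cells, Sox9 and Amh for Sertoli cells, Cyp11a1 and Star for Leydig cells, Acta2 and Myh11 for peritubular cells) read between 1397 and 38028 on the 4 arrays. That is above 299.9, the level under which 95% of the 1064 olfactory receptor transcripts lay, a class used as a guide to dimness, whose median intensity was 38.1. Pearson's r across rows on the log2 scale ran from 0.989 to 0.993 between knockout arrays and from 0.986 to 0.990 between a knockout array and the control. Replicates 1 and 2 had 315 rows at least 2-fold apart, replicates 1 and 3 had 509 and replicates 2 and 3 had 870. Replicate 3 had 662 such rows against the control, fewer than against replicate 2, while replicates 1 and 2 had 819 and 1293 against the control.

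The knockout differed from the control mainly by transcripts that read higher. Oocyte genes (Padi6, Zp2, Nlrp5, Nobox), the T-box gene Tbx19, the retinoic acid binding protein gene Crabp2, the X-linked Magea family and the germ cell gene Dppa3 stood above the control on all 3 knockout arrays, while Tbx1, Sp6, Slco1a5 and Dmrt1 itself stood below it. Differences are given as the mean log2 intensity of the 3 knockout arrays minus the log2 intensity of the control. In limma's test across all rows, 0 rows (0%) had a Benjamini-Hochberg adjusted p under 0.05, and the smallest was 0.118. At an unadjusted p under 0.05 there were 2015 rows, 1191 higher and 824 lower. With an intensity trend in limma's variance model, 55 rows passed as higher (0.215%) and 11 as lower (0.0429%). These included Tbx19, Padi6, Nobox, Crabp2, Dppa3, the 7 Magea genes, Sp6 and Dmrt1. In the same test Zp2 (adjusted p = 0.0542), Nlrp5 (0.0709), Tbx1 (0.0513) and Slco1a5 (0.0766) did not pass.

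Because the test called no row, genes were also counted by size: a row was counted when the knockout mean was at least 2-fold from the control and the difference exceeded the range of the 3 knockout arrays. By this construction the control lies outside the 3 knockout values of every counted row. This took 481 rows (1.88% of all rows), 341 of them higher (1.33%) and 140 lower (0.546%). Of these, 307 had a gene symbol. Without replicate 3 the size rule counted 826 rows and limma's test passed 238. Of the 481, 327 were still counted whichever knockout array was left out, 249 higher and 78 lower. Over all rows the median difference was -0.02 and 47.4% were higher. In 54.5% of all rows the control was below or above every knockout array, so such a position alone is common. At the 2-fold limit, Pkd2l2 (1.003), Foxf1 (-1.004) and Lrrc8e (1.006) were just inside it, and Basp1, Mid2 and Gprc5c were just outside.

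**Figure D1:**
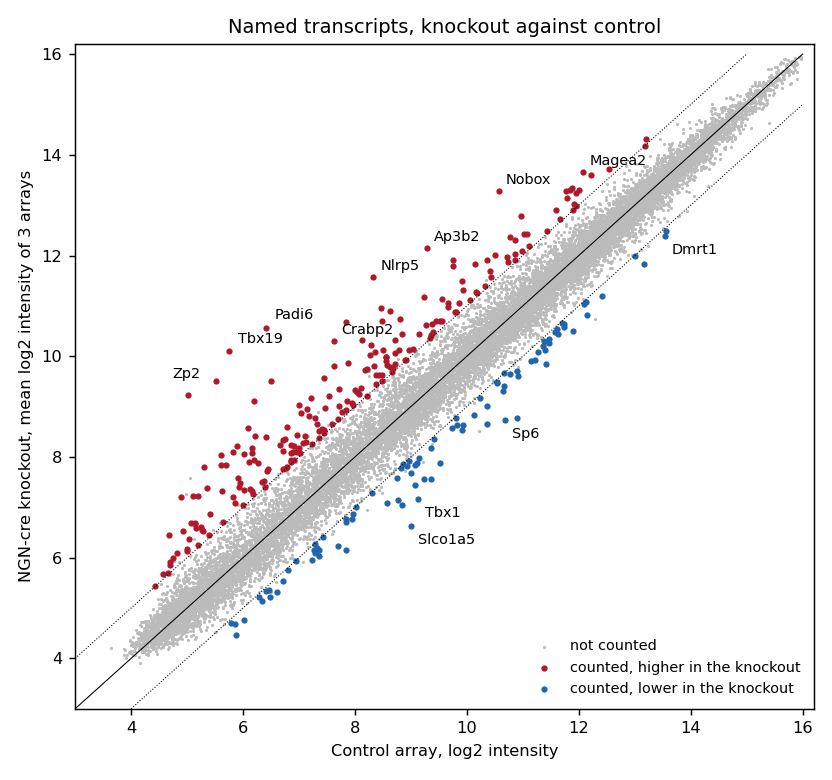
Each point is 1 transcript row with a gene symbol. Its log2 intensity in the control is on the horizontal axis and the mean log2 intensity of the 3 NGN-cre knockout arrays on the vertical axis. The coloured points are the 307 named rows counted as higher or lower in the knockout. The other counted rows are not drawn. The points far above the diagonal at the left are genes such as Tbx19, Padi6 and Zp2, dim in the control.

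Dmrt1, the targeted gene, read 4884, 5644 and 5509 in knockout replicates 1, 2 and 3 and 11847 in the control. The knockout arrays lay close together, at 5346 ± 406 (SD, n = 3), and all below the control. The difference was -1.15 (SE 0.22), which did not pass the test (limma, Benjamini-Hochberg adjusted p = 0.281) and passed with the intensity trend (limma, adjusted p = 0.0368; 0.051 with the trend and without replicate 1). RNA of the whole testis was measured, so here and below fewer cells of a type and less RNA per cell cannot be told apart. The sources used here do not say where the probes lie relative to the deleted part of the gene.

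Among the 8 measured DM-domain factors, the family to which Dmrt1 belongs, 6 were lower and 2 higher, with a median difference of -0.51. Apart from Dmrt1, the size rule counted Dmrtc1b as lower and Dmrtc2 as higher. Dmrtc1b, an X-linked member, read 166, 208 and 152 against 538, a difference of -1.63 (SE 0.26; limma, adjusted p = 0.228). Dmrtc2, which in the mouse is needed in meiotic spermatocytes, read 4420, 5089 and 3100 against 1458, a difference of 1.5 (SE 0.31; limma, adjusted p = 0.328). Replicate 3 was the lowest knockout array for both genes. Dmrta1 read 2669, 2130 and 1633 against 3874 and was not counted, its difference being -0.88.

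The widest difference among the leading genes was that of Tbx19, the T-box factor of corticotroph cells in the pituitary. Its intensity was 1419, 1326 and 719 in the knockout replicates and 53.5 in the control. The mean was 20.7-fold higher (log2 4.37, SE 0.40; limma, adjusted p = 0.118; 0.0115 with the intensity trend). Every knockout array was far above the control, replicate 3 being the lowest. The control value is near the middle of the olfactory receptor class, so the size of this fold is uncertain. Fold sizes are uncertain too for Zp2, Cyp2e1, the olfactory receptor gene Olfr20, Scn4b, Padi6 and Tph2. Their control values were 45.9, 64.7, 68.5, 72.9, 85.2 and 91.0, above the class median of 38.1 but under 299.9. The folds of Rhox11, H2-Eb1 and Oas1d are likewise uncertain, since their control values, given below, also lie under 299.9.

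Crabp2, which carries retinoic acid to its nuclear receptors, read 1383, 1242 and 1184 against 197. The 3 knockout values were close together and all well above the control, with a mean 6.43-fold higher (log2 2.69, SE 0.22; limma, adjusted p = 0.118; 0.0122 with the intensity trend). Ap3b2, a subunit of the neuronal adaptor complex that sorts vesicle cargo, read 5962, 4248 and 3637 against 626 (log2 2.85, SE 0.31; limma, adjusted p = 0.145). Prmt8, an arginine methyltransferase known from neurons, read 2667, 1998 and 1486 against 356, a difference of 2.49. Scn4b, a beta subunit of voltage-gated sodium channels, differed by 2.93, and Tph2, the tryptophan hydroxylase of serotonin neurons, by 3.0. Tph2 read 1038, 1046 and 352 against 91.0. Replicate 3 was the lowest knockout array for Crabp2, Ap3b2, Prmt8, Scn4b and Tph2, by little for Crabp2 and by much for Tph2.

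Further leading genes came from epithelia, cilia and metabolism. Spink8, a Kazal-type protease inhibitor gene of the epididymis, read 1195, 1692 and 2207 against 228, a difference of 2.85 (SE 0.35; limma, adjusted p = 0.145), with replicate 3 the highest. The keratin gene Krt79 read 2359, 2427 and 1205 against 395, a difference of 2.27. Phactr3, which binds actin and protein phosphatase, had 2 rows, and they differed by 2.20 and 1.80, both counted. Fn3k, the fructosamine kinase, also had 2 rows: the brighter read 967, 951 and 779 against 197 (2.19), while the dimmer differed by 0.39 and was not counted. Lrrc6, known for the assembly of ciliary dynein arms, read 1055, 2279 and 859 against 278, and Cyp2e1, a cytochrome P450, read 292, 235 and 280 against 64.7. Replicate 3 was the highest of the knockout arrays for Spink8 and the lowest for Krt79, Fn3k and Lrrc6.

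Among the leading lower genes the widest difference was -2.36, against 4.37 among the higher. Slco1a5, an organic anion transporter, read 146, 115 and 59.2 against 512 (-2.36; limma, adjusted p = 0.308). Tbx1, a T-box factor best known from pharyngeal development, read 155, 163 and 117 against 557 (-1.96, SE 0.26; limma, adjusted p = 0.17). Sp6, a zinc finger factor known from tooth and skin, read 405, 477 and 404 against 1645 (-1.95, SE 0.23; limma, adjusted p = 0.145). Replicate 3 was the lowest knockout array for all 3 genes, by little for Sp6. Cbln2, a secreted synapse organizer, read 156, 216 and 201 against 661, and Rspo2, a secreted activator of Wnt signalling, read 225, 195 and 154 against 600. Mpped1 read 276, 234 and 199 against 732. Scara3, a scavenger receptor gene, read 4256, 4535 and 2512 against 9173, a difference of -1.33. The others were Gja6 (-1.80), Dmrtc1b, Smim10l2a (-1.56), Lrrtm2 (-1.49), Scube1 (-1.39), Pxt1 (-1.37), Slc26a10 (-1.35) and Egr2 (-1.33). The knockout values of Slco1a5, Tbx1, Cbln2, Gja6, Rspo2, Mpped1, Dmrtc1b and Lrrtm2 all lay under 299.9. That is the level under which 95% of olfactory receptor transcripts lay, so the sizes of these falls are uncertain too.

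**Figure D2:**
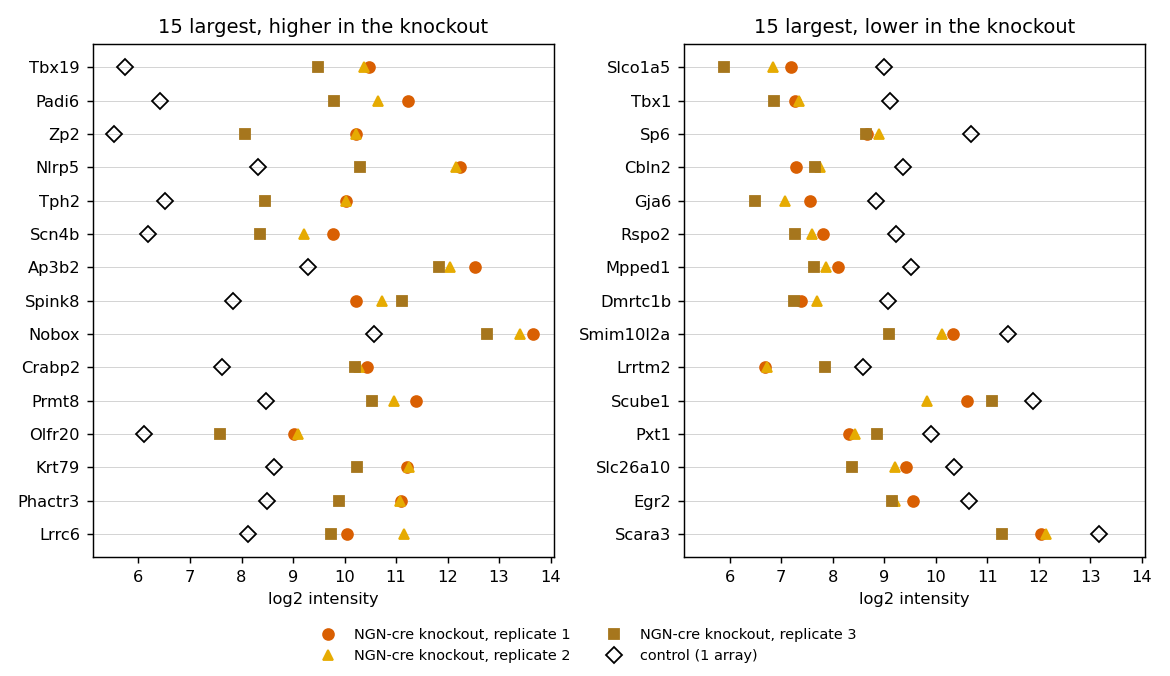
Log2 intensity of the 15 leading higher genes (left) and the 15 leading lower genes (right), with 1 symbol for each knockout array and an open diamond for the control. The genes were taken from rows counted by size, so knockout and control values do not overlap, and replicate 3 sat nearest the control for genes such as Zp2 and Nlrp5.

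Genes that in the mouse serve the oocyte made up 4 of the leading higher genes. Of the 33 measured oocyte and maternal effect genes, 24 were higher and 9 lower, where 47.4% of all rows were higher. The size rule counted 7 of them as higher and 0 as lower, against 1.33% and 0.546% of all rows. The median difference was 0.27, and 0.40 without replicate 3. Nobox, a homeobox factor that drives oocyte genes in the ovary, read 12998, 10862 and 6973 against 1519 (6.55-fold; log2 2.71, SE 0.36; limma, adjusted p = 0.17). Figla, a basic helix-loop-helix factor of oocytes, read 1766, 2131 and 1213 against 733, a difference of 1.18. Lhx8, the third ovarian transcription factor of the list, differed by 0.13, and its knockout arrays lay on both sides of the control.

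Padi6, a protein of the oocyte's cytoplasmic lattices, read 2410, 1596 and 885 against 85.2, a mean 17.7-fold higher (log2 4.14, SE 0.50; limma, adjusted p = 0.145; 0.0127 with the intensity trend). Nlrp5, a subunit of the subcortical maternal complex, read 4845, 4594 and 1253 against 321, 9.45-fold higher (log2 3.24, SE 0.73; limma, adjusted p = 0.355; 0.0709 with the intensity trend). Ooep, another subunit, read 2865, 3088 and 1626 against 1168, a difference of 1.06. The remaining subunits on the list were not counted, with Khdc3 at 0.80 and Tle6 at 0.00. Zp2, a protein of the zona pellucida that coats the egg, read 1198, 1190 and 267 against 45.9, 15.8-fold higher (log2 3.98, SE 0.81; limma, adjusted p = 0.315; 0.0542 with the intensity trend). Zp1 differed by 0.90 and Zp3 by 0.63. Oas1d, an oligoadenylate synthetase family gene of oocytes, read 136, 99.6 and 68.5 against 38.1. The growth factors Gdf9 and Bmp15, secreted by oocytes, differed by -0.13 and 0.14. Replicate 3 was the lowest knockout array for each of the 7 counted genes. The summed intensity of the list was 45863, 41895 and 27714 in the knockout replicates and 19656 in the control. Nobox alone gave 12998, 10862 and 6973 of the knockout sums and 1519 of the control sum. The array medians of the list were smaller differences, at 0.49, 0.37 and 0.15. Several Nlrp4 genes of the list are close copies of each other, and their values are uncertain.

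**Figure D3:**
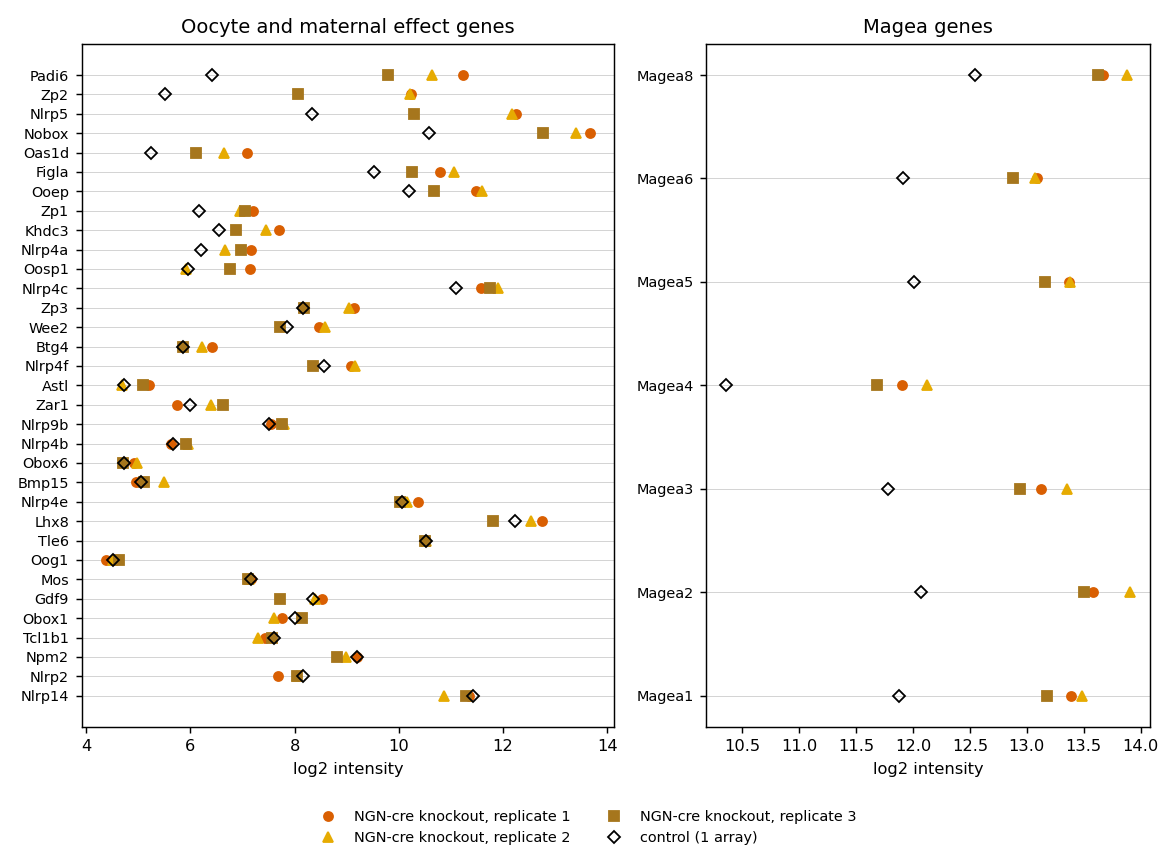
Log2 intensity of the 33 oocyte and maternal effect genes (left, ordered by the difference between knockout and control) and of the 7 Magea genes (right), with 1 symbol for each knockout array and an open diamond for the control. The upper 7 genes on the left were counted as higher, genes in the lower part of the list lie close to the control or on both sides of it, and all 7 Magea genes lie to the right of the control.

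The promoters of Nobox and Padi6 are shown because Nobox protein is known to bind a short element, TAATTG, which was searched on both strands. Each window is the RefSeq GRCm38.p6 sequence from 250 bases before to 50 bases after the gene's start, on the gene's own strand. The Nobox window is chr6:43309505-43309804 on the minus strand and the Padi6 window chr4:140742594-140742893 on the minus strand. Capitals mark the element, present in Padi6 as its reverse complement, 8 bases downstream of the start, and in Nobox not at all.
Nobox: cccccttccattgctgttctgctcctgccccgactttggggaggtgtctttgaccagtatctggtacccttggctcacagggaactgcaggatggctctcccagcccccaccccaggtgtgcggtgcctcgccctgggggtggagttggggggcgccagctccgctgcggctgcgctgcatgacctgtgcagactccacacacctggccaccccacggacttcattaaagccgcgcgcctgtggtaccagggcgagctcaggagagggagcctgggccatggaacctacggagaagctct
Padi6: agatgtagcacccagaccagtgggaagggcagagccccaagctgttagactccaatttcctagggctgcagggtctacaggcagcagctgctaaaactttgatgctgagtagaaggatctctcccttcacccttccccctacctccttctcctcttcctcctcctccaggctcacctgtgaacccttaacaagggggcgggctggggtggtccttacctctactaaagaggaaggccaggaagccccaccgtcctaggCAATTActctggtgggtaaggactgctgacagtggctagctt
The element lay in 3 of 30 windows of the oocyte list, those of Padi6, Ooep and Nlrp9b, in 11 of 182 windows of genes counted as higher (6.04%), in 6 of 94 of genes counted as lower (6.38%) and in 2628 of all 32851 windows (8.0%). A match of 6 letters is a description of the sequence and not a site of binding.

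A larger share of X-linked than of autosomal rows was counted. Among named rows, 24 of 641 on the X were counted as higher (3.74%) and 11 as lower (1.72%), against 189 (1.10%) and 82 (0.479%) of 17122 on the autosomes. These shares are a description, with no test. The 24 rows include 7 Magea and 2 Xlr genes, families of copies that can share signal. The X-linked Magea genes, a family of cancer-testis genes that male germ cells transcribe, were picked as a group after their values were seen. All 7 measured members were counted as higher, with differences from 1.10 to 1.59 and a median of 1.35, and all 7 passed with the intensity trend.

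Magea2 read 12231, 15341 and 11605 against 4304, a difference of 1.59 (SE 0.25; limma, adjusted p = 0.228; 0.0132 with the intensity trend). Magea4 read 3829, 4461 and 3281 against 1314, and Magea8 read 12999, 15043 and 12662 against 5984. Replicate 2 was the highest array for all of these. The transcripts of the copies were not compared here, but close copies can share signal, so the members are not taken as independent measurements. The promoter windows of Magea2 (chrX:155033243-155033542, minus strand) and Magea8 (chrX:154995801-154996100, minus strand), shown as the most alike pair of windows, share 264 of 285 aligned bases (92.6%). Promoter windows do not show how alike the transcripts or probes are. Both are printed without capitals, since no motif is marked.
Magea2: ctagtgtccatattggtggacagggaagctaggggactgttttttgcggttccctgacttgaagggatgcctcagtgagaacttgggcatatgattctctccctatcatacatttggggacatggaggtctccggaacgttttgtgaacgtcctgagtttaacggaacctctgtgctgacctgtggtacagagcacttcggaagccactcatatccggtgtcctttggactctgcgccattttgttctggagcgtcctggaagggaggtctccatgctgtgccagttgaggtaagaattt
Magea8: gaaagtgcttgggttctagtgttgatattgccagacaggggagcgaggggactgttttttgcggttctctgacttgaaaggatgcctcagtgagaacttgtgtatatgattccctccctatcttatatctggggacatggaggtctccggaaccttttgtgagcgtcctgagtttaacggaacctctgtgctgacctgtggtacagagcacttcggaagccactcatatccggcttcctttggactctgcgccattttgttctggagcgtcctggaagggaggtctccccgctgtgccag
Between the other members the identity of the windows ran from 54.8% for Magea8 and Magea1 to 86.6% for Magea3 and Magea1.

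Other X-linked germ cell genes were also higher. Fmr1nb, a cancer-testis gene, read 4953, 6557 and 1735 against 858, a difference of 2.16, with replicate 3 far below the other knockout arrays. Dcaf8l read 7855, 8832 and 5006 against 1999 (1.81), and the reproductive homeobox gene Rhox11 read 221, 346 and 176 against 69.3 (1.78). All 5 measured Xlr genes were higher, 2 of them counted (Xlr4b at 1.46 and Xlr at 1.05), and Ccnb3, a cyclin of meiotic prophase, read 13879, 15888 and 8650 against 4737 (1.39). The 7 Ssx genes went the other way, with a median of -0.64 and Ssx9 counted at -1.22. The Xlr, Ssx and Khdc1 families were likewise picked after their values were seen, and their copies are close. The Pramel family, looked at in the same way, had no common direction. Of its 17 measured members 10 were higher and 7 lower, with a median of 0.07, and only Pramel13 was counted, as higher (1.35). Outside the X, the oocyte-expressed gene Khdc1c read 175, 121 and 153 against 29.6 (2.32) and Khdc1a 98.2, 92.4 and 73.9 against 25.6 (1.77), with control values under the olfactory receptor median.

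Germ cell stages differed in direction. Of 23 measured genes of undifferentiated spermatogonia, which include the stem cells, 19 were lower and 4 higher, with a median of -0.45, array medians of -0.20, -0.40 and -0.43 against the control, and -0.29 without replicate 3. Of 19 genes of meiotic prophase, 18 were higher and 1, the meiotic cohesin gene Rec8, was lower (-0.44), with a median of 0.59 and array medians of 0.69, 0.85 and 0.30. Neither list rests on tested genes: limma passed no member of either, and with the intensity trend the synaptonemal complex gene Sycp1 passed.

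In the meiotic list, 3 of 19 genes were counted as higher, against 1.33% of all rows. Hfm1, a helicase of crossover formation, read 2719, 2496 and 1680 against 751 (1.58). Dmrtc2 is described above with the DM-domain factors. Dmc1, the meiotic recombinase, read 4466, 4412 and 3332 against 1674 (1.27). Sycp1, of the central region of the synaptonemal complex, read 23963, 27599 and 23820 against 13796 (0.86; limma with the intensity trend, adjusted p = 0.0447). Hormad1 (0.98), Msh5 (0.97), Spo11 (0.94) and Sycp3 (0.67), which act on the chromosome axis or in recombination, were higher without being counted. Replicate 3 stood closest to the control for Hfm1, Dmrtc2 and Dmc1.

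In the undifferentiated list, Egr2 and Pax7 were counted as lower and Cdh1 and Ddit4 as higher. Egr2, an early growth response factor induced by GDNF in cultured spermatogonia, read 759, 592 and 568 against 1597 (-1.33; limma, adjusted p = 0.281). Pax7, a marker of rare mouse spermatogonia, read 69.8, 72.4 and 76.4 against 161 (-1.14), all dim. Cdh1, the E-cadherin of spermatogonia and of duct epithelium, read 12287, 10255 and 7324 against 3945 (1.30), and the stress-induced Ddit4 read 3666, 3944 and 3707 against 1696 (1.15). Among 20 immediate early and heat shock genes, which respond to tissue handling and of which Egr2 is 1, 15 were lower, with a median of -0.27 (-0.16 without replicate 2) and array medians of 0.01, -0.30 and -0.52. Their part in the value of Egr2 was not tested.

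The differentiating spermatogonia list moved little: 5 of 9 genes were higher, none was counted and the median was 0.01. Stra8, the retinoic acid-induced gene that starts meiosis and a known target that DMRT1 represses in mouse spermatogonia, read 3730, 5133 and 2774 against 2120. All 3 knockout arrays were above the control, replicate 3 the least, and the difference of 0.83 (SE 0.35) was not counted and did not pass (limma, adjusted p = 0.637). Prdm1 read 425, 446 and 336 against 235 (0.76), Sohlh2, a factor of spermatogonial differentiation, differed by 0.39, and Kit, the receptor that marks these cells, by 0.01. The Stra8 promoter window (RefSeq GRCm38.p6, chr6:34920698-34920997, plus strand) is shown because it holds ACANTGT, the core of the DNA motif known for DMRT1, in capitals, 145 bases upstream of the start.
Stra8: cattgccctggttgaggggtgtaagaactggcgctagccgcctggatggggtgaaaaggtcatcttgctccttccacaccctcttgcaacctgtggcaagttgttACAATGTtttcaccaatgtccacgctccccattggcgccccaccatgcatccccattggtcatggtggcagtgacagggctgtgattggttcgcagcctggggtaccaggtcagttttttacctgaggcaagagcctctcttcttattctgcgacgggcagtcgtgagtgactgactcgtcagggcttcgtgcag
This core, which reads alike on both strands, lay in 7.54% of all 32851 windows, in 11 of 182 windows of genes counted as higher (6.04%) and in 2 of 94 of genes counted as lower (2.13%). The motifs were chosen with earlier results known.

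**Figure D4:**
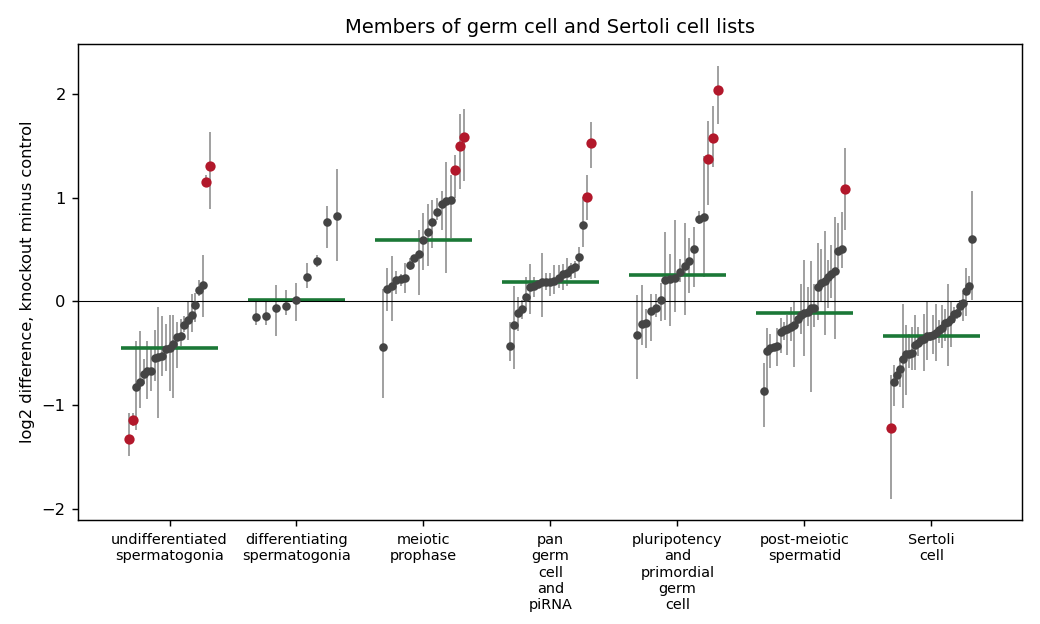
Difference in log2 intensity between knockout and control for each gene of the germ cell lists and the Sertoli cell list. Points are means of the 3 knockout arrays, red where counted by the size rule, grey lines span the 3 knockout arrays and green lines are list medians. The median lies at -0.45 for undifferentiated spermatogonia and at 0.59 for meiotic prophase.

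Genes shared by germ cells of many stages were mostly a little higher, 17 of 21 with a median of 0.18. Mybl1, a transcription factor that drives meiotic and piRNA genes, read 885, 979 and 722 against 296 (1.53), and Tex101, a germ cell surface protein, read 18713, 21581 and 15945 against 9258 (1.01). Of 25 post-meiotic genes 16 were lower, with a median of -0.12 (-0.18 without replicate 1 and -0.05 without replicate 2), and Spaca1, an acrosome protein, was counted as higher at 1.09 (490, 639 and 370 against 230). Transcripts of pluripotent and primordial germ cells included 3 of the larger differences. Dppa3, which protects methylation in the early embryo and is made in oocytes too, read 3786, 4153 and 2808 against 858 (2.04, SE 0.28; limma, adjusted p = 0.17; 0.0186 with the intensity trend). Dppa2 read 293, 372 and 248 against 101 (1.58), and Dppa5a 2239, 2732 and 1554 against 816 (1.38). Over the 18 genes measured, 13 were higher and the median was 0.25 (0.40 without replicate 3), with Pou5f1, a factor of pluripotent cells and spermatogonia, at 0.80.

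Retinoid genes other than Crabp2 did not move together. Of 28 genes of retinoid uptake, synthesis, breakdown and signalling, 13 were higher and 15 lower, the median was -0.04 and only Crabp2 was counted. The retinol transporter gene Stra6 differed by -0.76, the retinol carrier gene Rbp4 by -0.75 and Crabp1, the close relative of Crabp2, by -0.09. Of 21 genes known to respond to retinoic acid, 15 were higher, with a median of 0.15 (0.06 without replicate 2), and Crabp2 was again the single gene counted.

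The T-box family held both a leading higher and a leading lower gene. Of 17 members, 11 were lower and 6 higher, with a median of -0.18 (-0.09 without replicate 1). Besides Tbx19 and Tbx1, Tbx21, the factor of T helper cells, was counted as lower at 129, 94.7 and 105 against 230 (-1.08). The T-box letters AGGTGTGA, searched on both strands, lay in 1.28% of all promoter windows, in 3 of 182 windows of genes counted as higher (1.65%) and in 3 of 94 of genes counted as lower (3.19%).

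Sertoli cell genes were lower as a rule, by small amounts. Of 28 measured, 25 were lower and 3 higher, with a median of -0.33 and array medians of -0.13, -0.39 and -0.40. In 22 of the 25 every knockout array lay below the control. Over all rows, the 3 knockout arrays lay on 1 side of the control, above or below, in 54.5%. The summed intensity was 332672, 299152 and 281023 in the knockout replicates and 376329 in the control. Fshr, the receptor for follicle stimulating hormone, read 2060, 2249 and 2158 against 3528 (-0.71), and the junction genes Gja1 and Ocln differed by -0.78 and -0.66. Sox9 read 6422, 4358 and 4733 against 6432, replicate 1 being level with the control.

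Granulosa and ovarian somatic genes had no common direction, with 10 of 18 higher and a median of 0.04. Nr5a2, a nuclear receptor of granulosa cells, was counted as higher at 8551, 6990 and 7575 against 3802 (1.01), while Greb1 (-1.07) and Lrp8 (-1.05) were counted as lower. None of the 19 Leydig cell genes was counted, with Hao2 at 0.97, Star at -0.59 and a median of 0.04. The peritubular list had a median of 0.06 and the endothelial list of 0.17 (0.11 without replicate 2), with none counted.

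Macrophage and antigen presentation genes were higher on every knockout array taken as lists. Of 19 macrophage genes 16 were higher, with a median of 0.43, and their summed intensity was 27841, 34194 and 34606 in the knockout replicates against 22323 in the control. Adgre1, which encodes the F4/80 antigen, read 1541, 2028 and 3128 against 930 (1.20), and Csf1r, the receptor that macrophages need, read 2770, 3308 and 3081 against 1683 (0.86). Of 26 antigen presentation and interferon genes 24 were higher, with a median of 0.40, and the summed intensity was 48692, 71051 and 51234 against 44735. H2-Eb1, a class II chain, read 297, 269 and 487 against 85.3 (1.99; limma, adjusted p = 0.267), and the interferon-induced gene Ifit1 read 326, 391 and 313 against 138 (1.31). Array medians were 0.29, 0.62 and 0.49 for the macrophage list and 0.37, 0.67 and 0.27 for the antigen presentation list. Replicate 3 was the highest array for Adgre1 and H2-Eb1 and the lowest for Ifit1. The part of macrophages in the other differences was not tested.

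Genes of duct and epididymal epithelium, tissue that lies beside the testis, were partly higher. Of 24 duct epithelium genes 19 were higher, with a median of 0.34, and the summed intensity was 52486, 47424 and 45882 in the knockout replicates against 36464 in the control. Cdh1, which is also on the undifferentiated spermatogonia list, gave 12287, 10255 and 7324 of the knockout sums and 3945 of the control sum. Ehf, an epithelial ETS factor, read 451, 371 and 610 against 131 (1.84), Trp63, the basal cell p53 relative, read 292, 357 and 191 against 117 (1.22), and the claudin gene Cldn8 differed by 1.07. Of 21 epididymal genes only 8 were higher and the median was -0.12 (-0.07 without replicate 1 or without replicate 2), yet Spink8, Crisp1 and Defb2 were counted as higher. Crisp1, a sperm-binding protein secreted by the epididymis, read 1089, 1284 and 1226 against 311 (1.94, SE 0.22; limma, adjusted p = 0.145; 0.0348 with the intensity trend, and 0.0545 with the trend and without replicate 2). Defb2, a beta-defensin gene, read 222, 262 and 363 against 126 (1.14). The summed epididymal intensity, 21160, 20528 and 21092 against 23351, was below the control on every array. The part of such tissue in the values of Spink8, Crisp1 and Cdh1 was not tested.

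**Figure D5:**
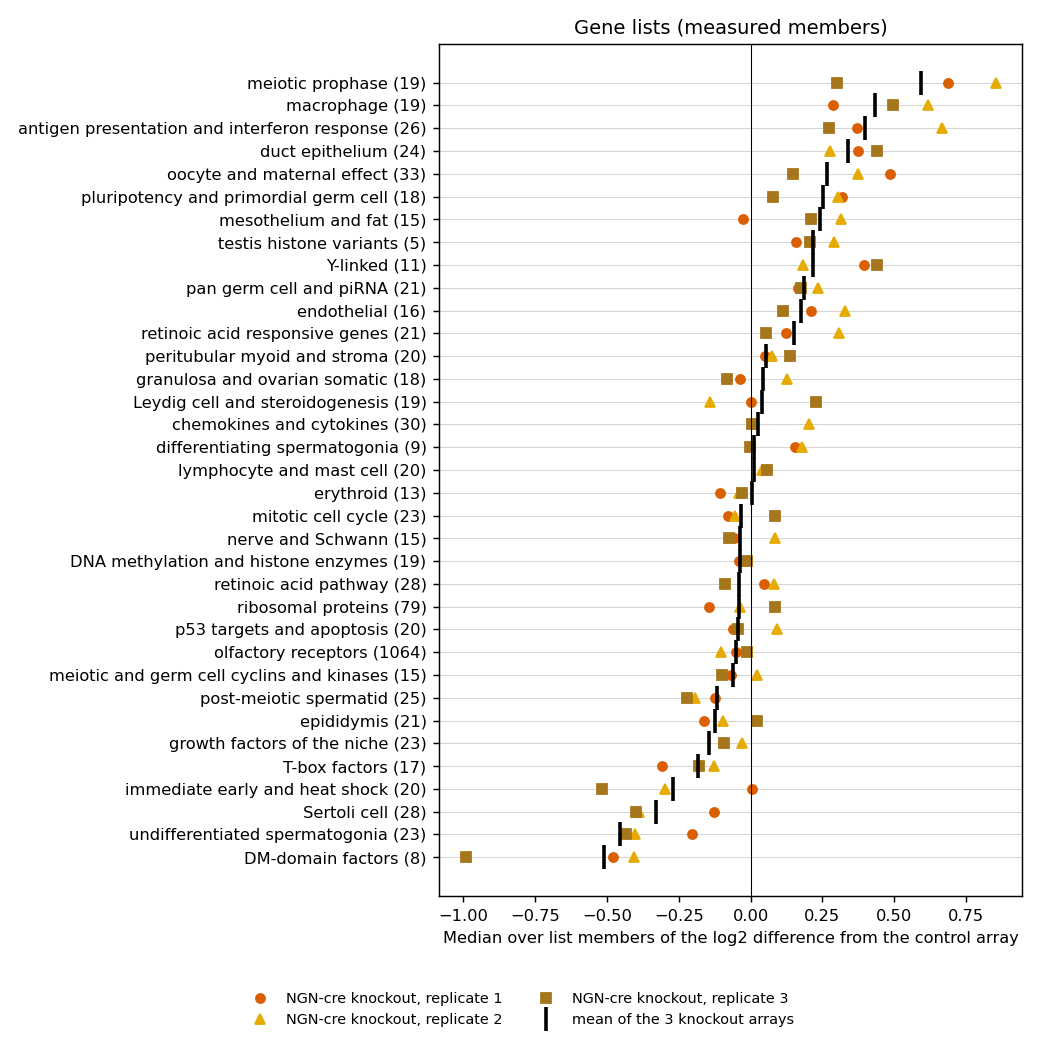
Median difference in log2 intensity from the control for each gene list, with 1 symbol for each knockout array, a black bar for the median taken on the mean of the 3 arrays, and the number of measured genes in brackets. The meiotic prophase, macrophage, antigen presentation and duct epithelium lists lie to the right of 0 on all 3 arrays, and the undifferentiated spermatogonia and Sertoli cell lists to the left.

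Most other lists sat near the median of all rows. The mitotic cell cycle list had a median of -0.03, p53 targets and apoptosis of -0.04, DNA methylation and histone enzymes of -0.04, niche growth factors of -0.14 (-0.04 without replicate 1), chemokines and cytokines of 0.03, ribosomal proteins of -0.04 and olfactory receptors of -0.05. Lymphocyte and mast cell genes had a median of 0.01, erythroid genes of 0.00, nerve and Schwann cell genes of -0.04 and meiotic cyclins and kinases of -0.06. The mesothelium and fat list, with 10 of 15 genes higher and a median of 0.24 (0.13 without replicate 2), and the testis histone list, with 5 of 17 genes measured and a median of 0.22, lay somewhat above them. The sign of the mitotic, p53, DNA methylation, chemokine, ribosomal, lymphocyte, erythroid and nerve medians changed when 1 array was left out. So did the sign of the differentiating spermatogonia, retinoid pathway, granulosa and Leydig cell medians given above. In the chemokine list Il18, a cytokine, read 1028, 1052 and 707 against 420 (1.12). In the mitotic list Ccne2, a cyclin of entry into DNA replication, differed by 0.86 and Ccnd1, a cyclin of earlier G1 phase, by -0.70. Of 11 measured Y-linked genes 8 were higher, with a median of 0.22, and Zfy2, a zinc finger gene of the Y, read 1276, 1446 and 625 against 310 (1.76); its close copy Zfy1 can share its signal. Tsga10, a sperm tail gene, read 5926, 7389 and 2949 against 1851 (1.45).

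The knockout arrays were not equally far from the control. In the rows counted as higher, the median difference was 1.39, 1.49 and 1.10 in replicates 1, 2 and 3, and replicate 3 was the lowest of the 3 in 248 of 341. In the rows counted as lower it was -1.20, -1.35 and -1.13, with replicate 3 the highest in 64 of 140. Over all rows the median range of the 3 knockout arrays was 0.37, and 1284 rows had a range of at least 1 log2 unit. The widest belonged to Fabp4, a fatty acid binding protein of fat and endothelium, at 1707, 6004 and 623 against 880, a range of 3.27. Paip1, a partner of the poly(A)-binding protein, read 4681, 602 and 2868 against 1128. In Pcp4, a calmodulin-binding peptide of neurons, replicate 3 alone was apart, at 323, 373 and 1968 against 354, and in Slc13a3, a carboxylate transporter of the kidney, the values were 407, 422 and 2471 against 413. The size rule counted none of these 4 genes.

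The setting with an intensity trend, which lets the spread depend on brightness, passed 66 rows, of which 65 were also counted by size. Of the 66, 39 had a gene symbol, 36 of them higher and 3 lower, and 10 were X-linked genes, all of them higher. Of these 10, 7 were the Magea genes, whose copies can share signal and are not taken as independent. Brightness mattered for the size rule too. It counted 0.209% of rows whose mean lay under the olfactory receptor median and 2.58% of rows from there to the class's 95th percentile. Above that level it counted 2.90% of rows up to a log2 intensity of 10, 2.02% from 10 to 12 and 0.83% over 12.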

How the data were processed

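Total RNA of P9 mouse testes had been hybridized in 1 colour to NimbleGen MM8 expression arrays, per the labels' protocols. The deposited values are linear intensity values, 1 per transcript row and array, and per the submitters' processing notes they were made with RMA (version not stated). RMA equalises arrays, so a shift in total RNA cannot be seen. Probe positions were not used here.

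From these, log2 values were taken with no offset or filter. Rows were matched without versions to RefSeq genes of GRCm38.p6: 17780 rows had 1 symbol (17277 genes) and 7851 were left unnamed. A row was left unnamed when it matched no symbol or more than 1. The brightest row stood for each of 433 genes with several rows. limma 3.58.1 in R 4.3.3 fitted 1 mean per group (eBayes, two-sided, Benjamini-Hochberg adjusted p under 0.05). The 2 residual degrees of freedom come from the 3 knockout arrays, and the control was taken to vary as much. The smallest p that permuting 3 arrays and 1 allows is 0.25. The number of arrays limits the precision. Promoters were compared with Biopython 1.88.

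Genes named were Dmrt1, the 15 largest differences each way among rows counted by size and not dim, the 5 smallest p-values each way, up to 4 counted genes (or the 2 largest differences) of each of 35 lists, and the 8 widest knockout ranges. Cloned cDNA and predicted names were counted only. Further list members, families, X-linked genes and motifs were chosen after values were seen, and all members and lists were chosen with earlier results of these data known. Alternatives were an intensity trend, robust eBayes, each knockout array left out, repeated quantile normalization, median centring, an offset of 32, dim transcripts left out, other fold limits and the mean of a gene's rows. The values of 1 Sertoli cell list member are not reported here.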

Additional observations from a re-analysis of the deposited data

Results flagged for a closer look

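Among the named genes, 15 had values in the DHH-cre knockout, a single array assumed to vary like the NGN-cre arrays, that differed from the NGN-cre knockout by limma's test of that difference (Benjamini-Hochberg adjusted p from 0.00104 to 0.0484). The value given for each is DHH-cre minus NGN-cre knockout on the log2 scale, and each is negative. These genes had been named for high values in the NGN-cre knockout, so a lower value on the DHH-cre array follows in part from the choice of genes and is no separate support. Against the control, the DHH-cre array differed by -4.04 for Crisp1 and by -1.19 to 0.48 for the other 14. Crisp1, of the epididymis, differed by -5.98 and Spink8 by -4.04; the size for Crisp1 is uncertain, since its intensity on the DHH-cre array was 19.0, under the olfactory receptor median of 38.1, and so was that of Scn4b (32.4). The oocyte gene Padi6 differed by -4.61. Tbx19 differed by -3.88 and Crabp2 by -3.39. The neuronal genes Scn4b, Ap3b2 and Prmt8 differed by -4.10, -3.58 and -2.99. Fn3k differed by -2.36. The epithelial genes Ehf and Cdh1 differed by -2.12 and -1.99. The germ cell genes Dppa3 and Dppa2 differed by -1.88 and -1.76. Cdkn1a, a cell cycle inhibitor, differed by -1.88 and Nr5a2 by -1.48. Array and DHH-cre group cannot be told apart.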

How the results depend on the processing

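The number of transcripts past limma's threshold ran from 0 to 238 when 1 knockout array was left out, 238 being without replicate 3, and was 66 with an intensity trend, or 77, 58 and 920 with the trend and without replicates 1, 2 and 3 (added after seeing the data). It was 0 with robust eBayes, repeated quantile normalization, median centring, an offset of 32 or dim transcripts left out. The size rule counted 458 to 826 transcripts with 1 array left out, 290 of 16037 with dim transcripts left out, 1884 at 1.5-fold, 114 at 3-fold and 352 with the offset. Dmrt1 differed by -1.15 with the trend and by -1.09, -1.19 and -1.17 without replicates 1, 2 and 3, with or without the trend, and its adjusted p ran from 0.000134 to 0.666. The undifferentiated spermatogonia median ran from -0.44 to -0.29 with 1 array left out, and 225 of 245 list medians moved by less than the spread between arrays. Of 96 other named genes, 44 passed limma's test without replicate 3. Directions of named genes held in 1128 values except for Pcp4 (-0.027 without replicate 3, up to 1.28 without replicate 1) and Sppl2a (0.19 without replicate 2, down to -0.97 without replicate 3), each under both variance models. No paired analysis was possible because the labels give no shared replicate numbers and the control is 1 array. The cause of these changes was not tested. Leaving out an array leaves 1 residual degree of freedom, and low intensities limit the folds of genes near the olfactory receptor level.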
